A study of Mus musculus with 4 samples.

Results

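The mouse genome holds 39 Hox genes in 4 clusters, and all 39 were found among the 43346 genes of the deposited count table by their symbols, a cluster letter from A to D followed by a paralog number. They were read in polyadenylated RNA of mouse lung, sequenced as 4 libraries. Libraries B and E came from mice with the genotype IL-33 over-expression, which carry a transgene for IL-33, an epithelial cytokine of the IL-1 family, and libraries D and F came from control mice. The sample labels give the cell type as epithelial cells of the lung, while the series title gives lung tissue. The strain, the age, the promoter that drives the transgene, the genotype of the controls beyond that word and the number of mice behind each library are given nowhere in the labels, so any p-value measures the spread between these libraries only. Of the 39 Hox genes, 32 had at least 1 count in some library and 17 had enough counts for the test between genotypes, which covered 20872 genes.

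Hox genes encode transcription factors with a homeodomain, a DNA-binding fold shared by all of them. Within each cluster the genes lie in the order in which they are used along the body axis, from paralog group 1 at the 3′ end of the cluster to paralog group 13 at the 5′ end, and genes with the same number in different clusters are paralogs. Low numbers act in the hindbrain, neck and chest, high numbers in the lower trunk, limbs and genital region. Adult organs keep part of this positional code, mainly in their connective tissue cells. In lung, the group 5 genes are the best studied: mice without Hoxa5 have malformed airways and many die at birth, and Hoxb5 acts in the branching of the airways.

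Promoters from both ends of the expression range are shown here, from the most highly expressed gene of clusters A and B and from a pair of genes that had no read. Each sequence is the 250 bases before the RefSeq start of the gene (build GRCm38.p6), written 5′ to 3′ on the gene's own strand, with every CG dinucleotide in capitals. The Hoxa5 window is chr6:52204588-52204837 on the minus strand, and the Hoxb4 window is chr11:96318017-96318266 on the plus strand. The Hoxa11 window is chr6:52245811-52246060 on the minus strand, and the Hoxd13 window is chr2:74667975-74668224 on the plus strand.
Hoxa5: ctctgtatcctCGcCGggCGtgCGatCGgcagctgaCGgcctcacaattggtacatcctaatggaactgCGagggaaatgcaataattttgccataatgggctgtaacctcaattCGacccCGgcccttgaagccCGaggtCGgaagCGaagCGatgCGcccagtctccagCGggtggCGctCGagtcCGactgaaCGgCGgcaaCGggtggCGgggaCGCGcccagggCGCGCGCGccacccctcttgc
Hoxb4: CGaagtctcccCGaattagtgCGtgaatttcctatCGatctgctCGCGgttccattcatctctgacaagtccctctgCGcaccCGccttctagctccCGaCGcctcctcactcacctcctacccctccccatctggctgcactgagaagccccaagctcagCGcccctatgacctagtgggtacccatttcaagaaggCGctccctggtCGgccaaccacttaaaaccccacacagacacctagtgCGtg
Hoxa11: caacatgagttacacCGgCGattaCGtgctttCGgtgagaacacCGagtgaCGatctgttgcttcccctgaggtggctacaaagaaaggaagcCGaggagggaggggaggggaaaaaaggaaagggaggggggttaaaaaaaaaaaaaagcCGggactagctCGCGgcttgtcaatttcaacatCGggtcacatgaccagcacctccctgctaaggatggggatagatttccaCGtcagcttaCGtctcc
Hoxd13: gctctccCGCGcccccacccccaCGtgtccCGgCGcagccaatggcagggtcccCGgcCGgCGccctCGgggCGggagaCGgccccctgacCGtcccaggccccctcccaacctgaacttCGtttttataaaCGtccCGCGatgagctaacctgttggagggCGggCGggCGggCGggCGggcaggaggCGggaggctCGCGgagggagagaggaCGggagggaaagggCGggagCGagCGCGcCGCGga

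The Hoxd13 promoter held 31 CG dinucleotides and the Hoxa5 promoter 28, while the Hoxb4 promoter held 14 and the Hoxa11 promoter 13. The higher and the lower CG contents among these windows were thus each seen at a gene with many reads and at a gene with 0 reads. Each of these windows lay above the Hox median given below, so no promoter with few CG dinucleotides is among them. RefSeq promoters were matched for 22 of the 39 Hox genes. Their median was 12 CG dinucleotides (range 2 to 35), against a median of 6 over all 32851 promoters of the same length, and 17 of the 22 lay above that median. The 4 matched promoters of genes at 1 CPM per kilobase or more (a unit defined with the libraries) had a median of 16, and the 14 matched promoters of genes under 0.1 CPM per kilobase had a median of 11. Short motifs were searched on both strands of the same windows. The TATA box core, TATAAA, was found in 3 of the 22 Hox promoters (13.6%, against 12.4% of all promoters) and the CCAAT box, CCAAT, in 13 (59.1%, against 33.9%). The core of the retinoic acid receptor site, AGGTCA, was found in 6 (27.3%, against 14%), the Hoxb4 promoter among them. The joint Hox and Pbx site TGATTNAT was found in 1, that of Hoxa2 (4.55%, against 2.83%). None of these motifs contains another, and a match describes only the letters in the window.

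Gene counts summed to between 76120696 (B) and 87723745 (E) per library. Levels are given as counts per 1000000 (CPM) of the scaled library size and, for comparisons between genes, as CPM per kilobase of the exon length that the table lists for each gene. Il33 stood at 1723 CPM in B and 874 in E, against 117 in D and 108 in F, in the direction of the genotype labels. Xist, a transcript of the inactive X chromosome, stood at 698 CPM in B and 811 in E, against 1.19 in D and 356 in F, and the Y-linked gene Eif2s3y had 0 counts in B and 498 in E, against 5926 in D and 2502 in F. The libraries of each group therefore differed in their mix of female and male RNA, and the Y-linked counts were lower in both transgenic libraries. Although the label is epithelial cells, markers of connective tissue, endothelium, mesothelium and leukocytes were present in every group, and no gene on the 5 marker lists was at 0 over the 4 libraries.

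The lung libraries carried an anterior Hox code drawn from clusters A and B. The 8 Hox genes with a mean level of 1 CPM per kilobase or more were Hoxa2, Hoxa3, Hoxa4, Hoxa5, Hoxb2, Hoxb3, Hoxb4 and Hoxb5, that is, paralog groups 2 to 5 of both clusters. A further 7 lay between 0.1 and 1 CPM per kilobase, among them Hoxa6, Hoxb6 and Hoxd8. Another 17 were above 0 and below 0.1, and 7 had 0 counts in all 4 libraries: Hoxa11, Hoxb13, Hoxc10, Hoxc11, Hoxc12, Hoxd1 and Hoxd13. A total of 0 over the 4 libraries allows a level of up to 0.00909 CPM, taking 3 counts as the limit and counting error only. In bulk RNA, fewer cells that express a gene and less RNA per cell cannot be told apart, which holds for every level given here.

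**Figure D1:**
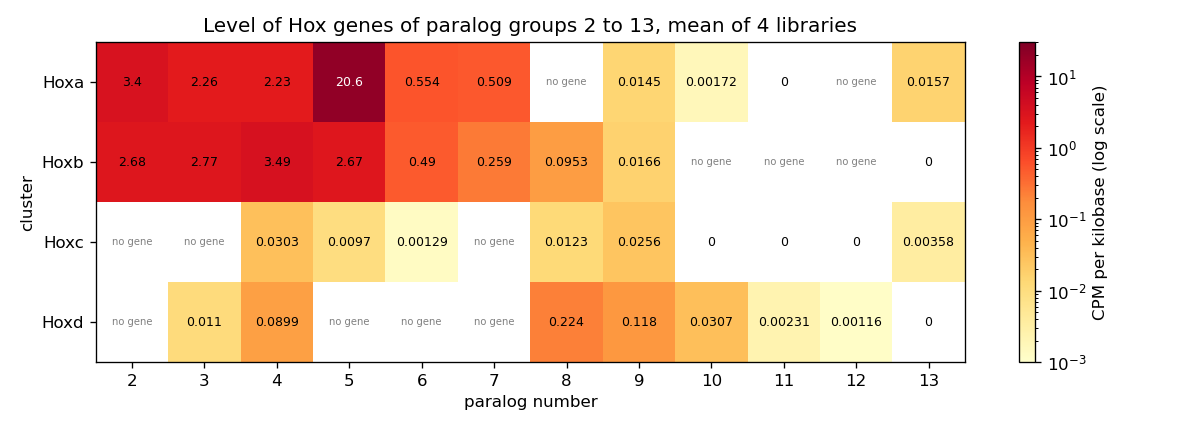
Mean level of the Hox genes of paralog groups 2 to 13 over 4 libraries, in CPM per kilobase, laid out by cluster (rows A to D) and paralog number (columns 2 to 13), with colour on a log scale and the positions without a mouse gene marked. The high block covers paralogs 2 to 5 of clusters A and B, with Hoxa5 highest at 20.6, and cluster C is low throughout.

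Cluster A held most of the Hox RNA. Its share of the summed Hox level, in CPM per kilobase, was 71.4% in B and 69.0% in E, and 70.7% in D and 68.6% in F (mean 69.9 ± 1.35%, SD, n = 4). Cluster B held 27.6% in B and 29.8% in E, and 27.5% in D and 30.4% in F (mean 28.8 ± 1.5%, SD, n = 4). The groups overlapped in both shares, and the order of the clusters was the same in every library. Without division by gene length cluster A held 61.7% and cluster B 36.9%.

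Clusters C and D were close to silent. Cluster D held 0.791% of the summed level in B and 0.972% in E, and 1.69% in D and 0.916% in F (mean 1.09 ± 0.405%, SD, n = 4). Cluster C held 0.261% in B and 0.191% in E, and 0.161% in D and 0.182% in F (mean 0.199 ± 0.0436%, SD, n = 4). In raw counts the 9 genes of cluster C gave only 15 in B and 22 in E, and 15 in D and 20 in F, and none had enough counts to be tested. Clusters A and B each had 7 genes tested and cluster D had 3.

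Along the clusters the level dropped after paralog group 5. By group, the mean share of the summed level was 14.1 ± 1.31% for group 2, 11.6 ± 0.757% for group 3, 13.6 ± 0.707% for group 4 and 54.2 ± 1.72% for group 5 (SD, n = 4). It was 2.43 ± 0.342% for group 6, 1.76 ± 0.163% for group 7, 0.749 ± 0.283% for group 8 and 0.382 ± 0.165% for group 9. The difference between groups 5 and 6 was many times the spread between libraries, while the range of group 2 overlapped those of groups 3 and 4. Groups 1 to 8 together held 99.7% in B and 99.5% in E, and 99.3% in D and 99.5% in F (mean 99.5 ± 0.162%, SD, n = 4).

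The posterior genes, which pattern the lower trunk, limbs and genital region, left few reads. The 16 genes of groups 9 to 13 had 187 of the 35226 Hox counts in all 4 libraries, and 102 without Hoxd9, the only one of them tested. Of the 16, 6 had 0 counts, among them Hoxa11, which acts in the limb, kidney and uterus, Hoxb13, a gene of the prostate and tail, and Hoxd13, a gene of the digits. Hoxa9, which acts in blood cell precursors, had 2 counts in B and 2 in E, and 8 in D and 15 in F. Hoxa13 had 0 in B and 5 in E, and 8 in D and 0 in F. Both transgenic libraries lay below both controls in Hoxa9 and the groups overlapped in Hoxa13, at counts too low for either gene to be tested. The highest mean level of the 16 was that of Hoxd9, at 0.118 CPM per kilobase.

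Hoxa5 stood above every other Hox gene in every library. Hoxa5 (ENSMUSG00000038253, chr6:52201754-52204587, minus strand) had 14.4 CPM per kilobase in B and 22.9 in E, and 21.9 in D and 23.0 in F (mean 20.6 ± 4.11, SD, n = 4). Library B was low and the other libraries lay close together, so the groups overlapped. Hoxa5 made up 48.0 ± 1.87% of the summed Hox level. It exceeded Hoxb4, the next gene in the mean, 5.96 ± 0.389-fold, its paralog Hoxb5 7.78 ± 0.641-fold and its neighbour Hoxa4 9.25 ± 0.359-fold. The values are ratios of CPM per kilobase within a library (SD, n = 4). These ratios varied less between libraries than the level itself.

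The steepest step between neighbours that were both tested was from Hoxa5 to Hoxa6. The 5′ ends of these genes lie 4.135 kb apart, and Hoxa5 exceeded Hoxa6 27.2-fold to 41.3-fold per library (mean 37.0 ± 6.58, SD, n = 4). In cluster B the matching step from Hoxb5 to Hoxb6 was 5.45-fold in the means and ranged from 4.03-fold to 9.48-fold. The ranges did not overlap, so the drop was steeper in cluster A than in cluster B in each of the 4 libraries. At the 3′ end of cluster B, Hoxb1, a gene of the early hindbrain, had 0 counts in B and 2 in E, and 4 in D and 0 in F, so few that no difference could be detected.

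**Figure D2:**
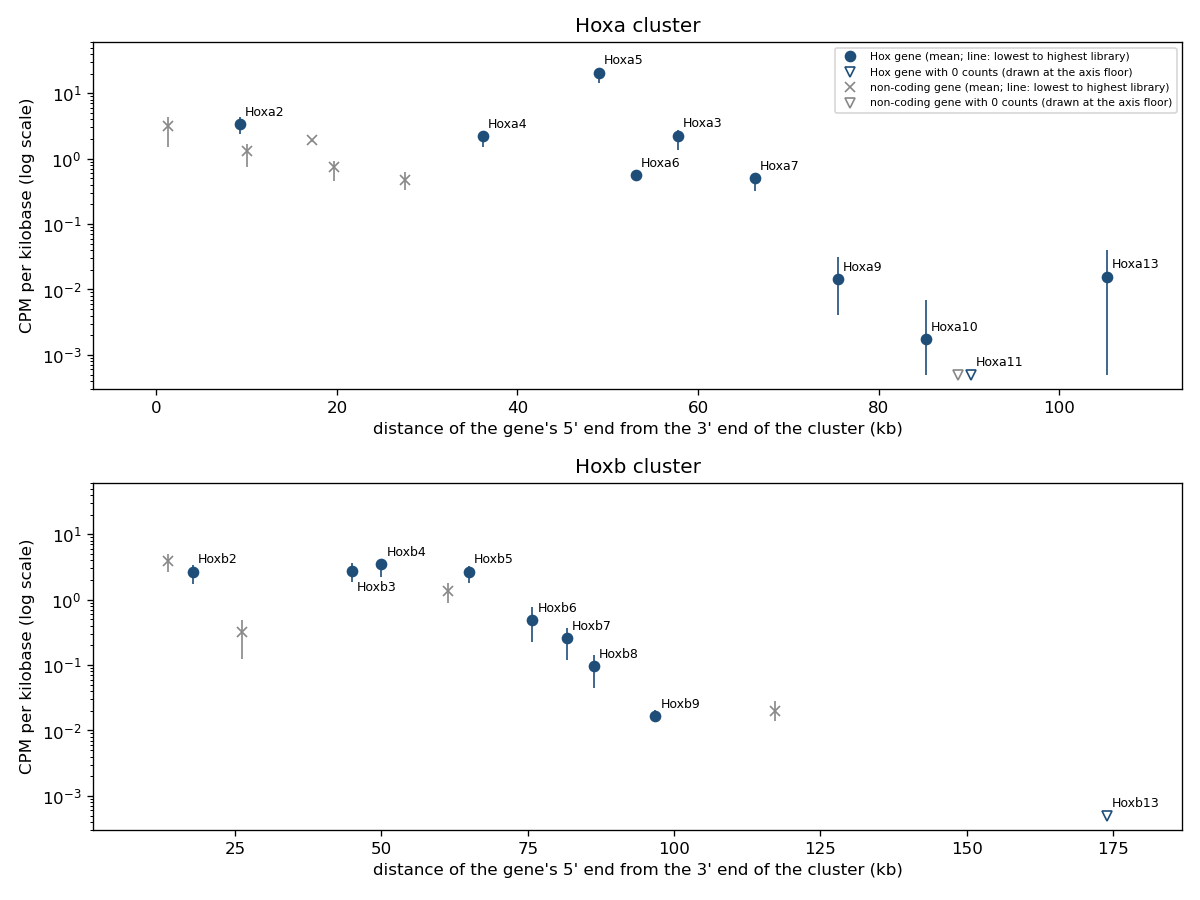
Level of the Hox genes of clusters A and B from paralog group 2 on (CPM per kilobase, log scale) against the distance of its 5′ end from the 3′ end of its cluster (kb), with the non-coding genes of the cluster beside them, the symbols at the mean and the lines from the lowest to the highest of 4 libraries, those that reach 0 stopping at the axis floor. Hoxa3 is placed by the 5′ end of its long gene model, past Hoxa5, and the 37.0-fold step from Hoxa5 to Hoxa6 is the sharpest fall among the well covered genes.

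In cluster A the genes beside Hoxa5 formed a plateau on the 3′ side. Hoxa2 had 2.37 CPM per kilobase in B and 3.93 in E, and 2.99 in D and 4.32 in F. Hoxa3, needed for the thymus and parathyroid, had 1.37 in B and 2.64 in E, and 2.25 in D and 2.77 in F. In both genes B was lowest, F was highest and the groups overlapped. Hoxa4, which acts in the neck vertebrae, had 1.51 in B and 2.40 in E, and 2.42 in D and 2.59 in F. There both transgenic libraries lay below both controls, E by little. On the 5′ side Hoxa6 had 0.530 CPM per kilobase in B and 0.555 in E, and 0.568 in D and 0.564 in F (mean 0.554 ± 0.0170, SD, n = 4). Its libraries lay closer together, relative to their mean, than those of the other Hox genes described here, although its counts were only 35 to 43 per library.

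Cluster B was flat from Hoxb2 to Hoxb5. Hoxb4, known for its part in blood stem cells, had 2.23 CPM per kilobase in B and 3.79 in E, and 3.83 in D and 4.10 in F. Hoxb3, a hindbrain and throat gene, had 1.87 in B and 2.97 in E, and 2.63 in D and 3.59 in F. The transgenic libraries lay below both controls in Hoxb4, E by little, and the groups overlapped in Hoxb3. Hoxb2, which acts in facial motor neurons, had 1.76 in B and 3.41 in E, and 2.39 in D and 3.15 in F. Hoxb5 had 1.78 in B and 3.24 in E, and 2.57 in D and 3.08 in F. In Hoxb2 and Hoxb5 the lowest and the highest library were both transgenic.

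Part of these levels may be shared with overlapping genes on either strand. The strand setting of the counting, which bears only on opposite-strand overlaps, is not stated in the labels. The GENCODE M21 annotation, which may not be the one behind the counts, places 52.9% of the exon bases of Hoxb3 and 27.3% of those of Hoxb2 on exons of other genes, mainly the opposite-strand Hoxb3os. The figure is 27.1% for Hoxa3 (25.4% on the opposite strand), 16% for Hoxa4 (all opposite) and 15% for Hoxa2 (all on the same strand). It is 0 for Hoxa5 and Hoxb4. The leading gene of each of these clusters thus shared no exon base with another gene. In cluster D, 62.8% of Hoxd3 and 52.3% of Hoxd4 was shared, mainly with genes on the same strand. The opposite strand accounted for 8.78% of Hoxd3 and 11.8% of Hoxd4.

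From Hoxb6 onward cluster B declined in steps. Hoxb6 had 0.222 CPM per kilobase in B and 0.701 in E, and 0.272 in D and 0.765 in F, from 33, 122, 43 and 128 counts. E and F lay together and B and D lay together, across the genotypes. Hoxb7 had 0.120 in B and 0.285 in E, and 0.257 in D and 0.372 in F, with overlapping groups. Hoxb8, which acts in brain microglia and in the spinal cord, had 0.0452 in B and 0.0899 in E, and 0.104 in D and 0.142 in F, from 9 to 32 counts per library. The transgenic libraries lay below both controls in Hoxb8. Hoxb9 had 3 or 4 counts in each library.

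In cluster D the highest levels per kilobase were those of Hoxd8 and Hoxd9, while in counts over the 4 libraries Hoxd8 had 204, Hoxd4 87 and Hoxd9 85. Hoxd8 (chr2:74704615-74707933, plus strand) had 0.0916 CPM per kilobase in B and 0.185 in E, and 0.380 in D and 0.239 in F, from 19, 45, 84 and 56 counts. Both transgenic libraries lay below both controls. Hoxd9, which acts in the forelimb and the spinal cord, had 0 counts in B and 28 in E, and 31 in D and 26 in F. Its level was at least 9.69-fold higher in D, 7.96-fold higher in E and 7.69-fold higher in F than the 3-count limit of B (0.0397 CPM), so the difference set B apart and not the genotypes. Hoxd4, a gene of the neck vertebrae, had 20 counts in B and 25 in E, and 31 in D and 11 in F, with overlapping groups.

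The leading genes of cluster C were at or near the detection limit. Hoxc4 had 10 counts in B and 3 in E, and 6 in D and 6 in F. Hoxc9, which acts in thoracic motor neurons, had 3 in B and 8 in E, and 3 in D and 7 in F. Hoxc8, which acts in motor neurons of the forelimb, had 0 in B and 7 in E, and 3 in D and 2 in F. In each of these genes the groups overlapped, and no difference was detectable at this depth.

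Ordered by mean share of the summed level, the genes fell into steps. Hoxa5 (48.0%) was followed by Hoxb4 (8.07%), Hoxa2 (7.90%), Hoxb3 (6.41%), Hoxb2 (6.19%), Hoxb5 (6.19%), Hoxa4 (5.19%) and Hoxa3 (5.19%). Hoxa6 (1.34%), Hoxa7 (1.18%) and Hoxb6 (1.09%) were lower. The ranges of this share over the 4 libraries were apart between neighbours only between Hoxa5 and Hoxb4, Hoxb5 and Hoxa4, and Hoxa3 and Hoxa6. The ranges of the other neighbours among these genes overlapped, although Hoxa2 lay above Hoxb3 in 4 of 4 libraries. Hoxb4, next after Hoxa5 in the mean, lay above Hoxa2 in only 1 of 4 libraries.

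**Figure D3:**
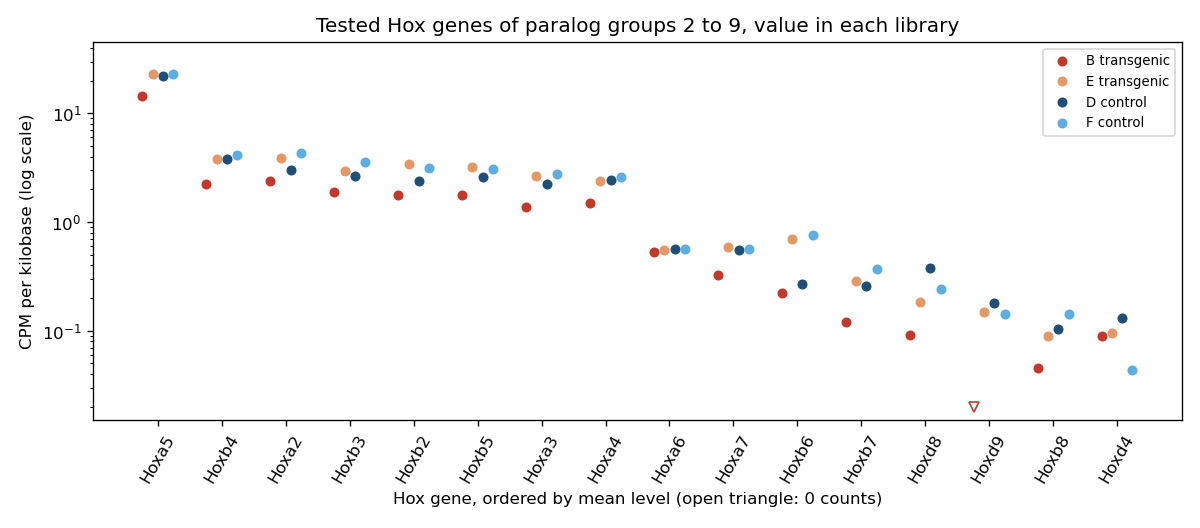
Level of the tested Hox genes of paralog groups 2 to 9 (CPM per kilobase, log scale) in each of the 4 libraries, ordered by mean level, with open triangles for 0 counts. Library B is the lowest in nearly all genes, from 14.4 in Hoxa5 to 0 counts in Hoxd9, and the order of the genes is much the same in all 4.

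The genotypes were compared with edgeR's quasi-likelihood test over all genes, with Benjamini-Hochberg adjustment. Of the 17 Hox genes tested, 0 passed an adjusted p of 0.05 in either direction, against 0.0% of all genes. Il33, at a log2 fold change of 3.53 (SE 0.37), did not pass either. Failing this threshold therefore does not show that a gene was unchanged. At an unadjusted p under 0.05 the test gave 0 Hox genes, against 1.29% of all genes. DESeq2 called 1 gene in all, Il33, which is 0.00479% of the genes, and limma-voom called 0. Hox log2 fold changes ran from -1.15 for Hoxd8 to 0.10 for Hoxd4, with a median of -0.28, against -0.0013 over all genes, and 16 of 17 were below 0, against 50.4% of all genes. Both transgenic libraries lay below both controls in 5 of the 17 (Hoxa4, Hoxa6, Hoxb4, Hoxb8 and Hoxd8), against 12.0% of all genes, and above them in 0, against 11.9%.

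The 8 Hox genes with the smallest p were all lower in the transgenic mean, and none passed. Hoxd8 had a log2 fold change of -1.15 (SE 0.47), Hoxb8 -0.85 (SE 0.50) and Hoxb7 -0.62 (SE 0.53). Hoxb4 had -0.40 (SE 0.28), Hoxa4 -0.36 (SE 0.28), Hoxb3 -0.36 (SE 0.28), Hoxa3 -0.32 (SE 0.33) and Hoxa5 -0.26 (SE 0.23). For Hoxa5 the group means were 18.7 ± 6.01 CPM per kilobase in transgenic and 22.4 ± 0.766 in control libraries (SD, n = 2 each). For Hoxd8 they were 0.138 ± 0.0660 and 0.310 ± 0.0992. The adjusted p was 1 for every Hox gene by edgeR's quasi-likelihood test with Benjamini-Hochberg adjustment.

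**Figure D4:**
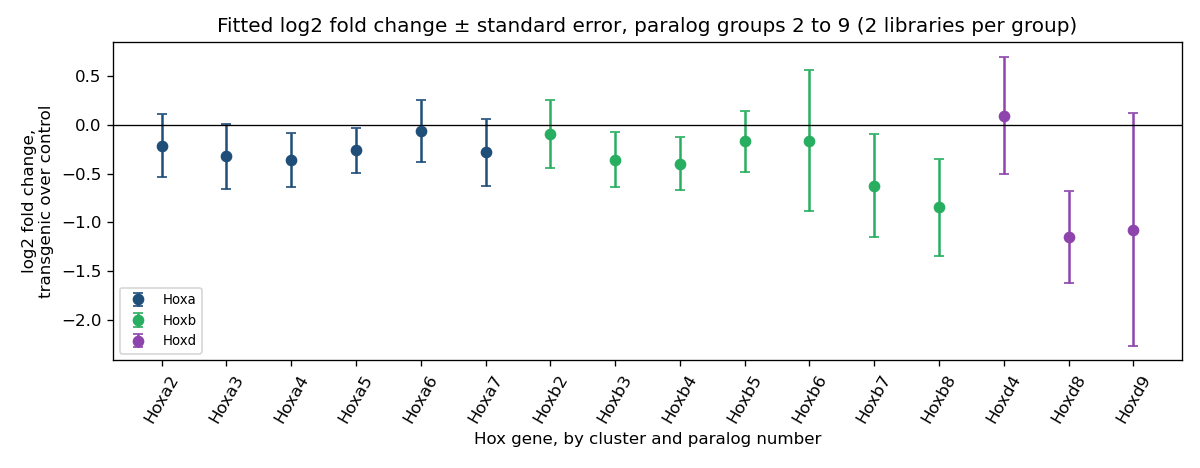
Log2 fold change of the tested Hox genes of paralog groups 2 to 9, transgenic against control, with bars of 1 standard error, from edgeR over 20872 genes. The values run from -1.15 for Hoxd8 to 0.10 for Hoxd4 and none passed the test, and the fitted value of Hoxd9 depends on its 0 counts in B.

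These differences rested on library B. B was the lowest of the 4 libraries in 16 of the 17 Hox genes, against 33.9% of all genes. F was the lowest in 1, Hoxd4 (24.0% of all genes), and D (21.9%) and E (20.3%) in 0. The summed Hox level was 70.6 CPM in B and 120.2 in E, and 107.0 in D and 124.5 in F (95.4 ± 35.1 against 115.7 ± 12.3, SD, n = 2 each). Over the 8 genes at 1 CPM per kilobase or more, the ratio of B to D had a median of 0.676 (0.583 to 0.793). That of E to F had a median of 0.939 (0.828 to 1.08). Within the transgenic group, B to E had a median of 0.597 (0.517 to 0.630). The controls differed as well, with a median of D to F of 0.823 (0.692 to 0.953), below 1 in all 8 genes. Without B the median Hox log2 fold change was 0.03, with 9 of 19 genes tested below 0, and Hoxa5 was at 0.034, Hoxa3 at 0.074, Hoxb4 at -0.065, Hoxa4 and Hoxb3 at -0.062 and Hoxb7 at -0.14. Without E the median was -0.74, with 11 of 19 genes at an unadjusted p under 0.05 and 0 past the adjusted threshold (smallest adjusted p = 0.346 by edgeR). In that fit B stands alone for its group and is assumed to vary as the controls do, so its p-values take their spread from the 2 controls only. Without D the median was -0.44 and without F it was -0.16. Hoxd8 stayed below 0 without each of the 4 libraries, from -1.76 without E to -0.74 without B.

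Markers of connective tissue moved with the Hox genes across the libraries. Relative to its mean, the median tested Hox gene stood at 0.659 in B and 1.12 in E, and at 1.02 in D and 1.18 in F. For the 12 mesenchymal markers, all tested, the values were 0.569 in B and 1.20 in E, and 0.872 in D and 1.37 in F, and B was lowest in 12 of 12. Their summed level was 1520 CPM and 3237 CPM in the transgenic libraries and 2308 CPM and 3773 CPM in the controls. The 6 endothelial markers were lowest in B as well (summed 3736 CPM in B and 5954 in E, and 4848 in D and 6512 in F). The 11 epithelial markers, led by surfactant genes, went the other way, with B highest in 8 (summed 54359 CPM in B and 34067 in E, and 45501 in D and 31706 in F). The 4 mesothelial markers summed to 131 CPM in B and 67.4 in E, and 182 in D and 54.8 in F, and the 6 leukocyte markers to 32.1 in B and 47.5 in E, and 13.8 in D and 26.7 in F. The part of these cell types in the Hox levels was not tested.

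**Figure D5:**
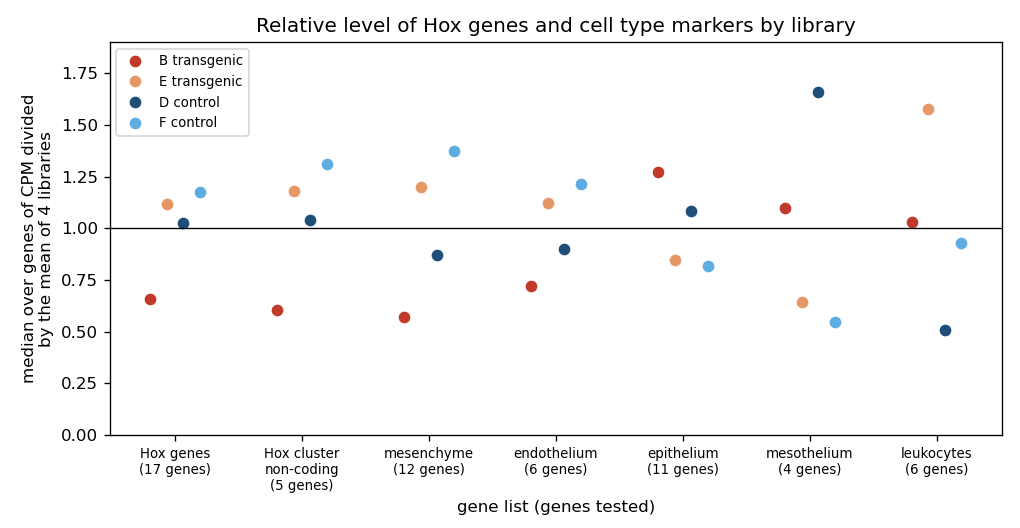
Level in each library relative to the gene's mean over the 4 libraries, for the tested Hox genes, the non-coding genes of the clusters and the marker lists, with 1 point per library at the median over the genes of the list. The Hox median in B is 0.659 and the mesenchymal median 0.569, while the epithelial median is 1.27.

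Several non-coding and antisense genes among the anterior genes of clusters A and B were read. Of 17 such genes listed, 16 were in the table, 8 of these had 0 counts, and 5 were tested, of which 0 passed. Their median log2 fold change was -0.30, with 0 of 5 above 0. Hotairm1, an RNA read from the 3′ end of cluster A, had 1.56 CPM in B and 3.41 in E, and 3.46 in D and 4.4 in F (fold change on the log2 scale -0.66, SE 0.41). Hoxaas2, between the anterior genes of cluster A, had 2.54 in B and 4.67 in E, and 4.54 in D and 5.73 in F (-0.51, SE 0.34). The groups did not overlap in Hotairm1, by little, and overlapped in Hoxaas2. Hoxb3os was the most abundant, with 11.0 CPM in B and 19.6 in E, and 15 in D and 20.7 in F. Hottip, Hoxa11os and Hotair had 0 counts in all 4 libraries. In cluster D the anterior Hoxd3os1 had 10 counts in all and Haglr 4.

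Other genes inside clusters C and D were nearly silent. The neighbours outside named here are the nearest rows with at least 1 count, so their being read is no finding. Inside cluster A 12 of 21 other rows of the table had a count and 7 reached 1 CPM per kilobase. Inside cluster B 6 of 9 had a count and 2 reached 1 CPM per kilobase. Inside cluster D 5 of 9 had a count and 0 reached 1 CPM per kilobase. Inside cluster C 0 of 7 had a count. The named neighbours of cluster C with counts lay far outside it, Smug1, a DNA repair enzyme, 116 kb away at 4.62 CPM per kilobase and Calcoco1, a nuclear receptor coactivator, 199 kb away at 27.4. Beside cluster D, Lnpk, a protein of the endoplasmic reticulum, stood at 1.98 and Mtx2, a mitochondrial import protein, at 7.84, while the homeobox gene Evx2, which lies next to Hoxd13, had 0 counts in all 4 libraries. Beside cluster A, Hibadh, an enzyme of valine breakdown, stood at 35.4, while Evx1, the homeobox gene next to Hoxa13, had 1 count. The nearest neighbours of cluster B, Ttll6 and Skap1, stood at 2.41 and 0.116. The mature microRNAs of the clusters were not measured as such in polyadenylated RNA. Of their gene rows in the list Mir10a had 28 counts and Mir10b, Mir196a-1, Mir196a-2, Mir196b and Mir615 had 0.

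The partners of Hox proteins were well expressed. Hox proteins bind DNA with the TALE homeodomain proteins of the Pbx, Meis and Pknox families. All 10 genes of this list, TALE genes and the Pbx-binding protein gene Pbxip1, were tested and 0 passed. The median log2 fold change was -0.05 with 2 above 0. Pbx2 had a mean of 22.1 CPM per kilobase and Pbx3 6.28, and the Pbx-binding protein Pbxip1 23.3. Pknox1 had 4.92, Meis1 4.0, Meis2 2.73 and Pknox2 1.80. Meis2 stood at 27.2 CPM in B and 31.6 in E, and 34.7 in D and 38.1 in F, with the groups apart (log2 fold change -0.31, SE 0.12). Meis1 stood at 27.7 CPM in B and 47.0 in E, and 40.7 in D and 53.2 in F, with overlapping groups (-0.33, SE 0.28). Library B was lowest in both. Over the list it was lowest in only 5 of 10 genes, against 16 of the 17 Hox genes tested.

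Chromatin regulators of the clusters stayed near the median of all genes. Polycomb proteins keep Hox genes silent and Trithorax proteins keep them active. All 28 genes of the list were tested, 0 passed, and the median log2 fold change was 0.02, with 16 above 0. Kdm6a, an X-linked histone demethylase that escapes X inactivation, stood at 97.2 CPM in B and 95.7 in E, and 59.8 in D and 81.9 in F (fold change on the log2 scale 0.44, SE 0.17), and as in Xist, D was lowest and F next.

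Genes of retinoic acid, the vitamin A signal that switches on anterior Hox genes in the embryo, did not pass either. Of 19 genes listed, 17 were tested and 0 passed. The median log2 fold change was -0.06, with 6 above 0. Aldh1a3, an enzyme that makes retinoic acid, stood at 0.318 CPM in B and 0.733 in E, and 0.819 in D and 0.927 in F (fold change on the log2 scale -0.72, SE 0.46), with the groups apart. Rara, a retinoic acid receptor, stood at 44.6 in B and 55.0 in E, and 53.3 in D and 58.5 in F (-0.17, SE 0.14), with overlapping groups. Library B was lowest in each, but over the 17 genes tested it was lowest in 9 and highest in 5.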

How the data were processed

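Polyadenylated RNA was purified with Qiagen RNeasy, per the labels. The submitters' processing notes name TopHat2 version 2, Bowtie version 1, featureCounts version 1 and the builds mm10 and GRCm38, which are 1 assembly. The annotation and the strand setting were not given in any source used here. The authors deposited a whole-number read count per gene and library, not normalized, and beside each count an RPKM value. The deposited RPKM values were used only as an alternative. The length column, called coding in the header, equalled the GENCODE M21 exon length for 37 of 39 Hox genes (74.7% of genes with a match), so it includes UTRs.

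Counts were filtered with filterByExpr (minimum count 10, total 15) and scaled by TMM. Transgenic and control libraries, 2 each, were tested with edgeR 4.0.16 in R 4.3.3 (quasi-likelihood, legacy setting, Benjamini-Hochberg at 0.05). Each standard error was obtained as log2 fold change over root F. The test was tried on simulated data, where it recovered 50% of 2-fold and 92% of 4-fold changes (50 genes each), with 18 false calls. In the real data it did not call Il33, so these rates may not hold there. DESeq2 1.42.0, limma-voom (limma 3.58.1), other size factors, an absent or stricter filter (2 libraries at 1 CPM, total 20) and leaving out each library were alternatives. Hox genes, lists and tests were chosen with earlier results of these data known. Values per library are given for the 3 highest genes of each cluster, those at 5 CPM or more and the 8 with the smallest p. From other lists the 2 with the smallest p and genes of the TALE list at 10 CPM or more are named. Other genes were chosen after their values were seen. Some items are not reported here. Promoters came from RefSeq. No batch is named in the labels, so none was modelled.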

Additional observations from a re-analysis of the deposited data

How the results depend on the processing

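The number of Hox genes called was 0 under every alternative run. Over all genes the test called 0, DESeq2 called 1, and leaving out 1 library gave between 0 and 15: 2 without B, 0 without D, 15 without E and 5 without F. Each of these fits leaves 1 library alone in its group, which is assumed to vary like the other group. With library B left out, the log2 fold changes of Hoxa5 and Hoxa3 turned above 0. Over the left-out libraries Hoxa5 ran from -0.64 (without E) to 0.034 (without B) and Hoxa3 from -0.88 to 0.074. The other 6 of the 8 Hox genes named with fold changes stayed below 0 without each library, but without B they were smaller: -0.065 for Hoxb4, -0.062 for Hoxa4, -0.062 for Hoxb3, -0.14 for Hoxb7, -0.45 for Hoxb8 and -0.74 for Hoxd8. Hox cluster shares held with the deposited RPKM values and without each library. With CPM not divided by gene length, cluster A held 61.7% and cluster B 36.9%. Counting paralogs 1 to 7 as anterior gave 98.7% and paralogs 1 to 9 gave 99.9%, since fewer or more genes are summed. The alternatives of Hox levels (RPKM, size factors, left-out libraries) were added after seeing the data, and 8 genes stayed at 1 CPM per kilobase or more in each. No paired analysis was possible because the labels give each library its own letter and no shared replicate number. Depth limits the 22 Hox genes that had too few counts to be tested.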

Other observations

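Homeobox genes related to the Hox clusters but outside them were silent. Of 9 ParaHox, Evx and Mnx genes, which pattern the gut, pancreas and spinal cord, 4 (Cdx2, Pdx1, Gsx1 and Evx2) had 0 counts in all 4 libraries, and none of the 9 had enough counts to be tested. Cdx1, an intestinal regulator, had 4 counts, all in B, and Mnx1, a motor neuron gene, had 4, all in E.

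Transcription factors of the lung field were present throughout. All 16 listed were tested, 0 passed edgeR's test, and the median log2 fold change was -0.09 with 6 above 0. Sox9, a factor of the branching airway tips and cartilage, stood at 43.9 CPM in B and 32.9 in E, and 33.4 in D and 27 in F (fold change on the log2 scale 0.35, SE 0.19), with overlapping groups. Gli2, a mediator of hedgehog signals in the lung mesenchyme, stood at 1.13 CPM in B and 2.79 in E, and 2.95 in D and 3.29 in F (-0.67, SE 0.45), with the groups apart. Library B was thus highest in Sox9 and lowest in Gli2.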
